A study of Mus musculus with 12 samples.

Results

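The glutathione transferases and the UDP-glucuronosyltransferases were examined across 12 RNA-seq libraries of mouse proximal tubule (PT) cells in culture. Members were the protein-coding genes whose symbol begins with Gst and a class letter (a, m, p, t, k, o or z), with Mgst, or with Ugt1, Ugt2 or Ugt3, each followed by a number. This gave 48 genes of the 25514 in the files, 21552 of them protein-coding: 27 Gst and Mgst genes and 21 Ugt genes. The 48 genes comprised 7 of the mu class, 6 alpha, 4 theta, 3 pi, 2 omega, 1 kappa, 1 zeta, 3 microsomal, 9 Ugt1a, 10 Ugt2 and 2 Ugt3 genes. Of these, 28 passed the filter on low counts and were tested, 14 had between 1 and 113 counts in all and fell below it, and 6 (Gstm4, Ugt2a1, Ugt2a2, Ugt2a3, Ugt3a1 and Ugt3a2) had no count in any library.

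The study asked how TGF-β signaling bears on mitochondria of PT cells and on their interplay with the interstitium in chronic kidney disease, and used H2O2 as an oxidative stress in these cultures. All 12 libraries came from cells of male mice with floxed alleles of Tgfbr2, the gene of the TGF-β type II receptor (TβRII). The mice also carried the Immorto-mouse transgene, a T antigen that is stable at 33 °C and lets cells divide there. The H2ts6;Tgfbr2fl/fl line is called TβRII flox/flox here. The H2ts6;Tgfbr2-/- line, TβRII-/-, was made from it in culture by Cre recombinase delivered with an adenovirus. Both lines were moved to 37 °C for 5 days in medium with 2.5% serum. Each was then sequenced untreated in that medium and after 24 h with H2O2 in serum-free medium, with 3 libraries in each of the 4 groups. Each genotype is thus 1 line, so loss of TβRII and any other difference between the lines cannot be told apart, and neither can H2O2 and the removal of serum. The H2O2 dose is left unstated because the labels and the methods of the study give it in different units. The labels do not say whether the 3 libraries of a group were separate cultures, so p-values measure the spread between libraries, which may be technical.

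Glutathione transferases join the thiol of glutathione to electrophilic compounds, among them products of lipid peroxidation. The cytosolic classes (alpha, mu, pi, theta, omega, zeta) are soluble dimers, and the Mgst proteins sit in membranes. UDP-glucuronosyltransferases of the endoplasmic reticulum attach glucuronic acid to bilirubin, steroids, phenols and drugs, and the PT is a main site of this conjugation in the kidney. The Ugt1a genes each have their own first exon and share the remaining exons, so that a read in the shared part is counted for each of them.

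Gene totals per library lay between 15870155 and 20857618 counts. The first principal component, with 81.5% of the variance over the 12971 genes tested, separated the genotypes. Untreated, Tgfbr2 had 8791, 7521 and 7032 counts in the TβRII flox/flox libraries and 6485, 6895 and 6642 in the TβRII-/- libraries (edgeR log2 fold change -0.35). These were counted over a whole transcript, which does not check the deleted part. The study reports that it verified the deletion by immunoblotting and RNA-seq. Of 12 PT markers, 5 passed the filter, and Slc22a6, Kap and Slc13a3 had no count in any library, while Lrp2 and Aqp1 were abundant. All 5 pan-epithelial markers (Cdh1, Epcam, Krt8, Krt18 and Cdh16) were called higher in untreated TβRII-/- PT cells, as were 16.3% of all genes tested. Their summed normalized counts ran from 12151 to 13893 in untreated TβRII flox/flox libraries and from 31235 to 33908 in untreated TβRII-/- libraries. Cdh1, the E-cadherin gene, had 5 counts over the 3 untreated TβRII flox/flox libraries and 3372 over those of TβRII-/- PT cells. Epcam had 1 and 2008. Both genes passed the filter only through the TβRII-/- libraries, in which they are high. The PT markers were called lower in untreated TβRII-/- PT cells for 4 of the 5 tested, against 11.8% of all genes. Their sums were 22931 to 28778 in untreated TβRII flox/flox and 16384 to 17483 in untreated TβRII-/- libraries. One of the 4, Slc5a2, had 0 counts in untreated TβRII-/- libraries and passed the filter only through TβRII flox/flox libraries. Of the markers of other cells, 3 of 7 for fibroblasts (1 higher, 2 lower), 1 of 5 for endothelium (higher), 1 of 6 for leukocytes (higher) and 0 of 5 for the distal nephron passed the filter. The part of these marker differences in the transferase results was not tested.

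Tested members often sit in gene clusters with close copies, and reads that fit several copies can be placed on any of them. Of the 28 tested members, 12 had no 100-base stretch of their transcript in a transcript of another gene in GENCODE M39. These were Gsta3, Gsta4, Gstm5, Gstm7, Gsto1, Gstp3, Gstt1, Gstt2, Gstz1, Mgst1, Mgst2 and Mgst3. Shorter or inexact matches were not searched, so some of their reads may still fit other genes. The share of such stretches found elsewhere was 7.18% for Gstm1 and 17.8% for Gstm2, in pseudogenes and, for Gstm1, Gstm3, 11% for Gstp1, 32.7% for Gstp2 and 23.8% for Gstt3. It was 80.8% for Gsta1, 85.3% for Gsta13 and 57.5% to 100% for the Ugt1a genes, whose individual counts are therefore uncertain.

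Sequences before annotated starts are shown for the most abundant member and for every member with a match to the core of the antioxidant response element, the site bound by NRF2 with small Maf proteins. RefSeq windows of GRCm38.p6 covered 42 of the 48 members, with 51 windows. Gsta4, Gsta5, Gsta13, Gstt2, Ugt1a6b and Ugt3a2 had no entry. The 250 bases before each start were searched on both strands for TGACNNNGC, which 10.2% of all 32851 windows contained, and for GCGTG, the core of the element bound by the aryl hydrocarbon receptor, which 28.2% contained. The first was found in 4 of the 51 windows (Gsta3, Gstm5, Gstm7 and Mgst1) and the second in 9. In Gsta3, Gstm5, Gstm7 and Mgst1 below, capitals mark TGACNNNGC in either orientation. In Gstm1 they mark GCGTG. A match is a run of letters and not a measured site.
Gsta3, chr1:21240335-21240584, plus strand: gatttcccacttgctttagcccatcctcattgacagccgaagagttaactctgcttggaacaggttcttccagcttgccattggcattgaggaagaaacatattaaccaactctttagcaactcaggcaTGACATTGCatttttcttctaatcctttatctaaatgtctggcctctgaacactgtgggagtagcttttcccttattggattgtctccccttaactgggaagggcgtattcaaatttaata
Gstm5, chr3:107895604-107895853, plus strand: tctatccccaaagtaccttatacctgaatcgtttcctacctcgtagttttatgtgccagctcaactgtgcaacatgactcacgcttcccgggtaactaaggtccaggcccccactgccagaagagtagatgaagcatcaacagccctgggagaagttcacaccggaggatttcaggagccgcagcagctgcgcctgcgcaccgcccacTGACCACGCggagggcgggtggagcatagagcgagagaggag
Gstm7, chr3:107931615-107931864, minus strand: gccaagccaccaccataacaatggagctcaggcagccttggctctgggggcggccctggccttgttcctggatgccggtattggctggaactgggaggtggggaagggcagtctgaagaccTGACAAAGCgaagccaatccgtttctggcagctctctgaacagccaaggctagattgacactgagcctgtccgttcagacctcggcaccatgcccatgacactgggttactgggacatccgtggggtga
Mgst1, chr6:138140277-138140526, plus strand: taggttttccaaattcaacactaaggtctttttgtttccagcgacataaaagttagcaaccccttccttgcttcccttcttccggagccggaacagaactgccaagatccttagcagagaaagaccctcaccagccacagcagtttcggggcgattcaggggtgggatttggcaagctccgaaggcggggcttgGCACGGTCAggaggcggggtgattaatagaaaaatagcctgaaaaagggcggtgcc
Gstm1, chr3:108017974-108018223, minus strand: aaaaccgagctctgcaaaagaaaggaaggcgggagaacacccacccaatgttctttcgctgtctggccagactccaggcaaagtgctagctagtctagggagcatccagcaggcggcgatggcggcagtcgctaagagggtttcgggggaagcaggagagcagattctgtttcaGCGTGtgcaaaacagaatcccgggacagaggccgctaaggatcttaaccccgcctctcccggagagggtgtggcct
The match of Gsta3 lay 121 to 113 bases before the start, that of Gstm7 129 to 121 and that of Mgst1, on the reverse strand, 56 to 48. The Gstm7 window shown lies inside the annotated gene, chr3:107926334-107931877, before an internal start. The other Gstm7 window, chr3:107931818-107932067, reaches beyond the 5′ end of the gene and had no match. In Gstm5 it lay 42 to 34 bases before the start and overlapped a GCGTG match on the other strand. Among these 4 genes, Gsta3, Gstm7 and Mgst1 were higher in TβRII-/- PT cells and Gstm5 was not called (values below). Of all 28 tested members 23 were called higher untreated, and of all genes tested 16.3%. Any link between a match and these levels was not tested. Gstm1, with the highest count of all members, had no match to TGACNNNGC in either of its windows.

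Most tested transferases had higher counts in untreated TβRII-/- than in untreated TβRII flox/flox PT cells. Many of them passed the filter only through the TβRII-/- libraries, in which they are high. The mu class genes Gstm1 and Gstm2 were 18.8-fold and 14.9-fold higher, the alpha class gene Gsta4 was 78.6-fold higher, and the Ugt1a genes were 13.8-fold to 23.1-fold higher. Gsto1 of the omega class was the only tested member called lower. Calls required a fold change of at least 1.5 and an edgeR p, adjusted by Benjamini-Hochberg, under 0.05. By this rule 23 members were higher, 1 was lower and 4 (Gstm5, Gstp3, Gstz1 and Mgst3) were not called. Of all genes tested, 16.3% were called higher and 11.8% lower. The median log2 fold change was 3.84 over the 28 tested members and 0.01 over all genes tested. These counts are a description, because 17 of the 28 passed the filter only through the TβRII-/- libraries, in which they are high. Among the 11 that also passed in TβRII flox/flox libraries alone, 6 were higher, 1 was lower and 4 were not called, with a median of 1.04. Without the 9 Ugt1a genes, 14 of 19 tested members were higher and 1 lower. The median of 3.84 counts each of these 9 genes separately, though they share reads.

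**Figure D1:**
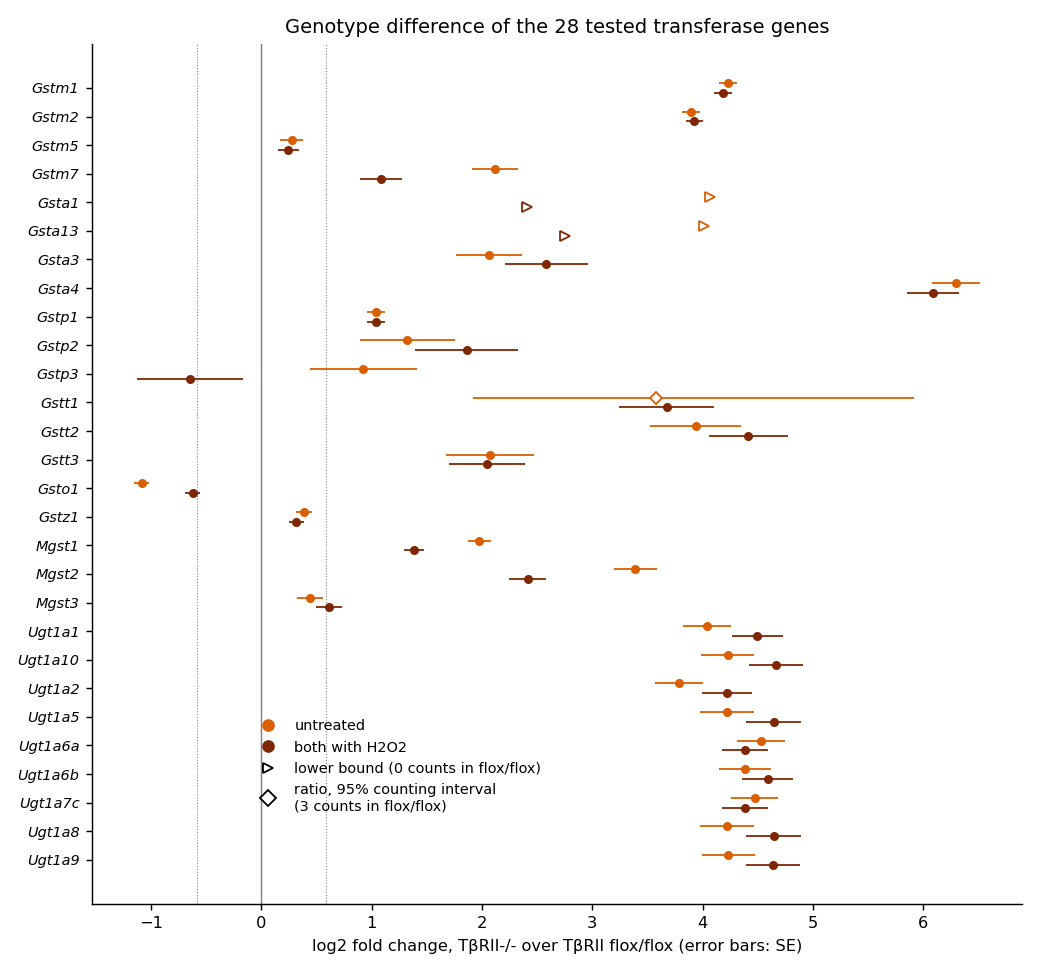
Log2 fold change of each of the 28 tested members between TβRII-/- and TβRII flox/flox PT cells, untreated (orange) and with H2O2 (brown). Points are edgeR estimates with their SE, dotted lines mark a 1.5-fold change, triangles are lower bounds for Gsta1 and Gsta13, and the diamond is the ratio of summed counts of Gstt1 with its 95% counting interval. Gsto1 lies left of 0 in both comparisons, and Gstm1, Gstm2, Gsta4, Gstt2 and the Ugt1a genes lie beyond 3.

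The mu class genes form a cluster on chromosome 3 in which neighbours differed widely. Gstm1 (chr3:108012250-108017973, GRCm38.p6, minus strand) had 638, 713 and 739 counts in the 3 untreated TβRII flox/flox libraries and 13103, 15085 and 14715 in the untreated TβRII-/- libraries. After H2O2 it had 928, 888 and 907 in TβRII flox/flox and 20869, 22099 and 16085 in TβRII-/- PT cells. Every TβRII-/- library was far above every TβRII flox/flox library. The log2 fold change between untreated genotypes was 4.23 (SE 0.083, edgeR adjusted p = 8.94e-29).

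Gstm2 (chr3:107981702-107986420), the next expressed gene of the cluster, followed the same order. Its counts were 162, 185 and 198 in untreated TβRII flox/flox, 2594, 3152 and 3151 in untreated TβRII-/-, 191, 199 and 195 in TβRII flox/flox with H2O2, and 3535, 4020 and 3039 in TβRII-/- with H2O2. The genotypes did not overlap, and the log2 fold change was 3.90 untreated (SE 0.080, edgeR adjusted p = 2.71e-28).

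Gstm7 (chr3:107926334-107931877) was less abundant. It had 23, 18 and 25 counts in untreated TβRII flox/flox and 80, 100 and 135 in untreated TβRII-/- libraries, a log2 fold change of 2.12 (SE 0.21, edgeR adjusted p = 1.63e-10). With H2O2 its counts were 40, 39 and 36 in TβRII flox/flox and 87, 111 and 93 in TβRII-/- PT cells, so that the genotypes lay closer together than without H2O2.

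Gstm5 (chr3:107895854-107898685), at the other end of the cluster, differed little. Its counts ran from 213 to 302 in untreated TβRII flox/flox and from 330 to 346 in untreated TβRII-/- libraries. The log2 fold change was 0.27 (SE 0.10, edgeR adjusted p = 0.0183), below the fold limit, and the normalized counts of the groups overlapped. Gstm3 had 29 and Gstm6 71 counts over the 12 libraries, both below the filter, and Gstm4, beyond Gstm1, had none. Counts of Gstm3 were 0 in all 3 untreated TβRII flox/flox libraries and 10 in the untreated TβRII-/- libraries together, at least 3.05-fold higher when 0 is replaced by 3 counts over the group.

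Of the alpha class, known for detoxifying products of lipid peroxidation and for steroid binding, 4 of 6 genes were tested and all 4 were higher in TβRII-/- PT cells. All 4 passed the filter only through the TβRII-/- libraries, in which they are high, so this count is a description. Among all genes tested, 16.3% were called higher untreated. Gsta4 (chr9:78191966-78209349), whose enzyme conjugates 4-hydroxynonenal, had 4, 2 and 9 counts in untreated TβRII flox/flox and 361, 509 and 449 in untreated TβRII-/- libraries. With H2O2 they were 2, 6 and 5 in TβRII flox/flox and 326, 413 and 343 in TβRII-/- PT cells. The gene was thus near the limit of detection in 1 genotype and well counted in the other, with a log2 fold change of 6.30 untreated (SE 0.22, edgeR adjusted p = 3.67e-22).

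Gsta3 (chr1:21240565-21265575), whose enzyme in mice conjugates the epoxide of aflatoxin, had 10, 15 and 12 counts in untreated TβRII flox/flox and 55, 51 and 64 in untreated TβRII-/- libraries. The log2 fold change was 2.06 (SE 0.30, edgeR adjusted p = 4.53e-07). With H2O2 it had 5, 4 and 8 counts in TβRII flox/flox and 53, 49 and 22 in TβRII-/- PT cells.

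Gsta1 and Gsta13, so alike in sequence that reads cannot be placed between them with confidence, had no count in any of the 6 TβRII flox/flox libraries. Gsta1 had 19, 20 and 16 counts in untreated TβRII-/- and 8, 3 and 8 in TβRII-/- libraries with H2O2. Gsta13 had 21, 10 and 22 and then 3, 15 and 6. Against 3 counts over the group, untreated Gsta1 was at least 16.8-fold and Gsta13 at least 16.2-fold higher in TβRII-/- PT cells. Gsta2 and Gsta5 had 25 and 22 counts in all and were below the filter.

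The pi class differed moderately. Gstp1 (chr19:4035411-4037912), the main pi enzyme of most cells, had 324, 360 and 380 counts in untreated TβRII flox/flox and 771, 825 and 795 in untreated TβRII-/- libraries. With H2O2 the counts were 339, 299 and 286, and 679, 916 and 672. The genotypes did not overlap, with a log2 fold change of 1.04 both untreated (SE 0.079, edgeR adjusted p = 3.07e-13) and with H2O2 (SE 0.081, edgeR adjusted p = 5.07e-13).

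Gstp2, a close copy of Gstp1, had few counts: 4, 8 and 12 in untreated TβRII flox/flox and 29, 20 and 17 in untreated TβRII-/- libraries, with a log2 fold change of 1.32 (SE 0.43, edgeR adjusted p = 0.00806). Without TβRII flox/flox replicate 1 this call was lost (0.98, edgeR adjusted p = 0.0599), as it was without TβRII-/- replicate 1 (1.03, edgeR adjusted p = 0.0621). With H2O2 its counts were 6, 2 and 8 in TβRII flox/flox and 18, 38 and 15 in TβRII-/- PT cells. Gstp3 had 5, 10 and 7, then 14, 18 and 14 counts untreated, and 2, 19 and 16, then 9, 10 and 9 with H2O2, in the same order of genotypes. It was not called (log2 0.93 untreated, SE 0.48, and -0.65 with H2O2, SE 0.48). The library with 2 counts, TβRII flox/flox with H2O2 replicate 1, decided this: without it Gstp3 was called lower in TβRII-/- PT cells with H2O2 (-1.21, edgeR adjusted p = 0.0116).

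Of the theta class, which acts on small halogenated compounds, 3 of 4 genes were tested and all 3 were higher in TβRII-/- PT cells. All 3 passed the filter only through the TβRII-/- libraries, in which they are high, so this count is a description. Among all genes tested, 16.3% were called higher untreated. Gstt2 (chr10:75831842-75837419) had 5, 2 and 1 counts in untreated TβRII flox/flox and 47, 52 and 40 in untreated TβRII-/- libraries, a log2 fold change of 3.94 (SE 0.41, edgeR adjusted p = 6.40e-10). Gstt1 (chr10:75783813-75798584) had 0, 1 and 2 counts and then 10, 17 and 12, a ratio of 11.9 with a 95% counting interval of 3.79 to 60.2 (edgeR adjusted p = 3.80e-05). Gstt3 had 10, 4 and 6 counts and then 28, 19 and 46, a log2 fold change of 2.07 (SE 0.40, edgeR adjusted p = 3.53e-05). With H2O2 the order of genotypes was the same. Gstt2 had 3, 6 and 1 counts in TβRII flox/flox and 99, 87 and 75 in TβRII-/- PT cells, Gstt1 had 4, 1 and 3 and then 37, 55 and 35, and Gstt3 had 12, 6 and 10 and then 48, 42 and 48. Gstt4 had 1 count in all.

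Gsto1 (chr19:47854973-47864790), which reduces dehydroascorbate and protein-glutathione disulfides, moved in the opposite direction. It had 1278, 1299 and 1345 counts in untreated TβRII flox/flox and 650, 720 and 651 in untreated TβRII-/- libraries. In the H2O2 groups it had 836, 776 and 711 in TβRII flox/flox and 558, 731 and 510 in TβRII-/- PT cells. In normalized counts no TβRII-/- library reached a TβRII flox/flox library of the same treatment. Gsto1 fell by 1.08 on the log2 scale between untreated genotypes (SE 0.067, edgeR adjusted p = 1.81e-15). Gsto2, its neighbour, had 113 counts in all and was below the filter.

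Gstz1 (chr12:87147161-87164723), the maleylacetoacetate isomerase of tyrosine breakdown, had 456, 464 and 457 counts in untreated TβRII flox/flox and 619, 688 and 658 in untreated TβRII-/- libraries. Under H2O2 the counts were 618, 532 and 523, and 822, 970 and 696. The groups did not overlap in normalized counts, but the log2 fold change of 0.39 untreated (SE 0.073, edgeR adjusted p = 2.75e-05) and 0.32 with H2O2 (SE 0.070, edgeR adjusted p = 1.87e-04) stayed under the fold limit. The kappa gene Gstk1, whose enzyme works in mitochondria and peroxisomes, had 15 counts over the 12 libraries.

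The 3 microsomal genes encode membrane enzymes that act in the endoplasmic reticulum, Mgst1 also in the outer mitochondrial membrane. Mgst1 (chr6:138140527-138156755) had 125, 142 and 98 counts in untreated TβRII flox/flox and 478, 565 and 526 in untreated TβRII-/- libraries. With H2O2 it had 232, 224 and 199 in TβRII flox/flox and 606, 779 and 646 in TβRII-/- PT cells. The log2 fold change between untreated genotypes was 1.97 (SE 0.10, edgeR adjusted p = 2.88e-17).

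Mgst2 (chr3:51636912-51682675), which can form leukotriene C4, had 20, 24 and 12 counts in untreated TβRII flox/flox and 188, 240 and 217 in untreated TβRII-/- libraries, a log2 fold change of 3.39 (SE 0.19, edgeR adjusted p = 2.68e-16). With H2O2 it had 51, 26 and 33 in TβRII flox/flox and 218, 270 and 211 in TβRII-/- PT cells. Mgst3 (chr1:167371966-167393841) had 150, 177 and 162 counts and then 261, 245 and 219 untreated, a log2 fold change of 0.44 (SE 0.12) that was not called. With H2O2 its counts were 195, 181 and 137 and then 268, 378 and 289, and it was called higher at 0.62 (SE 0.12, edgeR adjusted p = 2.24e-05). That call was lost without TβRII flox/flox with H2O2 replicate 3 (0.49), without TβRII-/- with H2O2 replicate 2 (0.56) and with sums over the transcripts of a gene (0.58), each time under the fold limit.

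**Figure D2:**
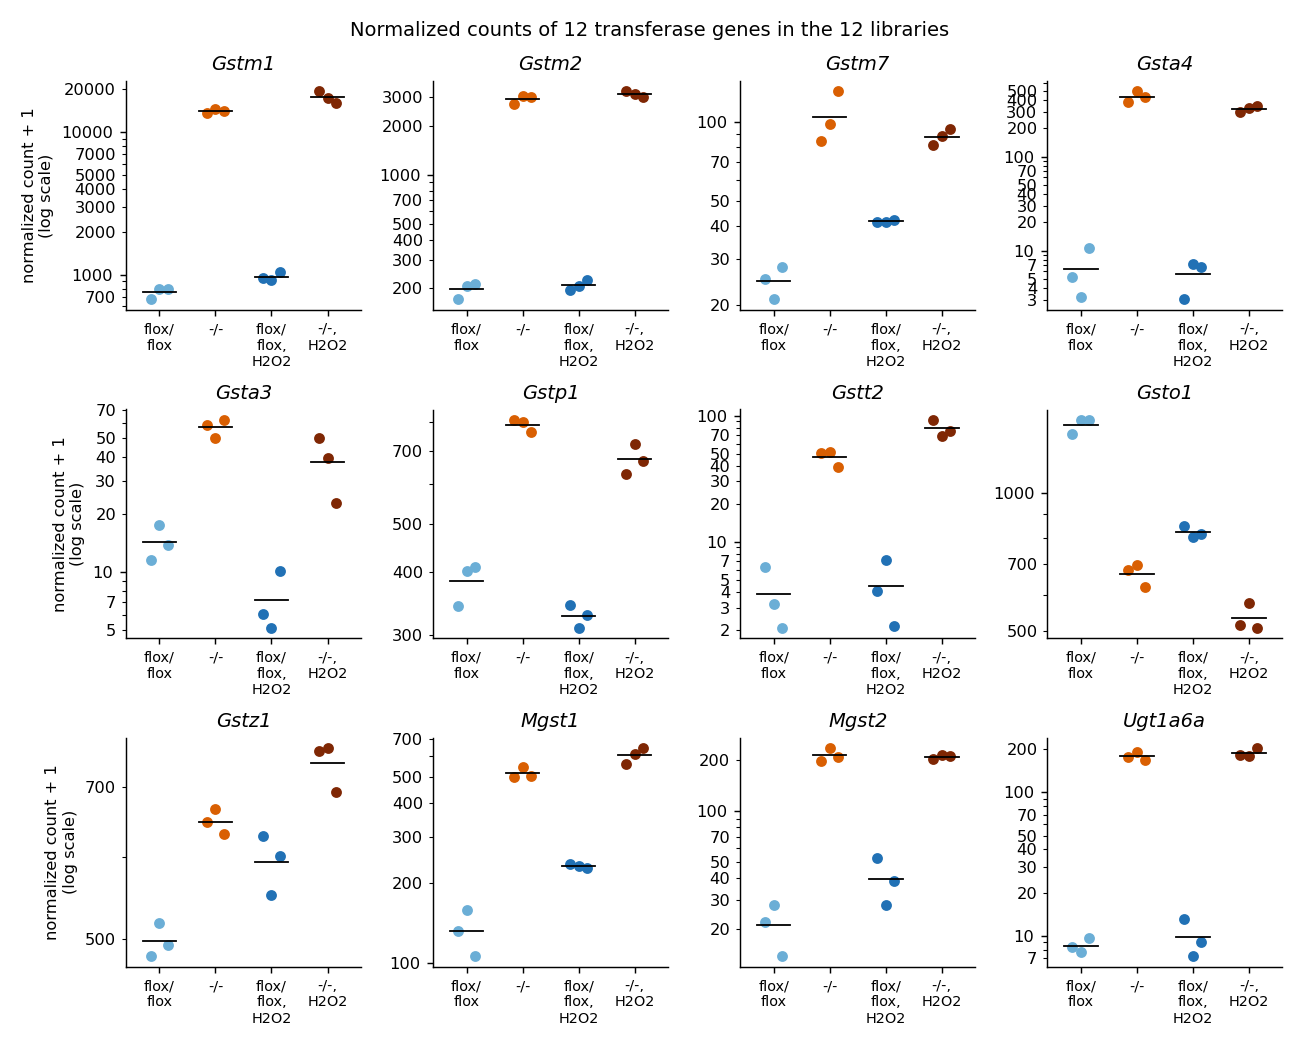
Normalized counts plus 1 (log scale) of 12 members in the 12 libraries, with 1 point per library and a line at the group mean. Blue points are TβRII flox/flox and orange and brown points are TβRII-/- PT cells. Gsto1 is highest in untreated TβRII flox/flox libraries, and Gstm1, Gstm2, Gsta4, Gstt2 and Ugt1a6a show a wide gap between genotypes.

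The 9 Ugt1a genes lie over chr1:88055411-88220002 and share their 3′ exons. Ugt1a1, the bilirubin transferase, had 7, 10 and 10 counts in untreated TβRII flox/flox and 151, 186 and 154 in untreated TβRII-/- libraries. With H2O2 it had 10, 5 and 5 in TβRII flox/flox and 160, 211 and 175 in TβRII-/- PT cells. Ugt1a6a, a transferase of simple phenols, had 7, 6 and 8, then 168, 196 and 174 untreated, and 12, 6 and 7, then 196, 227 and 203 with H2O2. No TβRII flox/flox library held more than 13 counts on any Ugt1a gene, and no TβRII-/- library fewer than 136.

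The other Ugt1a counts were close to these. In untreated TβRII flox/flox libraries Ugt1a2 had 8, 9 and 12, Ugt1a6b 7, 7 and 8, Ugt1a7c 8, 6 and 8, and Ugt1a5, Ugt1a8, Ugt1a9 and Ugt1a10 had 7, 6 and 8 each. In untreated TβRII-/- libraries Ugt1a2 had 136, 164 and 141, Ugt1a6b 155, 186 and 169, Ugt1a7c 169, 196 and 176, Ugt1a9 136, 162 and 140, Ugt1a10 137, 160 and 139, and Ugt1a5 and Ugt1a8 had 136, 160 and 138 each. The log2 fold changes ran from 3.78 for Ugt1a2 to 4.53 for Ugt1a6a (SE 0.22 to 0.24, edgeR adjusted p from 2.71e-18 to 3.27e-16). The 9 estimates rest largely on the same reads and are not 9 separate observations.

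With H2O2, Ugt1a2 had 11, 6 and 6 counts in TβRII flox/flox and 155, 195 and 166 in TβRII-/- PT cells. Ugt1a6b had 13, 4 and 4 and then 184, 227 and 199, and Ugt1a7c had 12, 6 and 7 and then 198, 227 and 202. Ugt1a5, Ugt1a8, Ugt1a9 and Ugt1a10 each had 10, 3 and 4 counts in TβRII flox/flox, and in TβRII-/- PT cells 154, 195 and 166 for Ugt1a5 and Ugt1a8, 154, 195 and 164 for Ugt1a9, and 155, 200 and 167 for Ugt1a10. Again the genotypes were far apart for each gene.

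The lowest Ugt1a count of a library was subtracted from the other Ugt1a counts, to show by how much the genes differed. The counts that remain are not unique to a gene, since 100% of the 100-base stretches of the Ugt1a7c transcript and 97.6% of those of Ugt1a6a occur in another gene. The lowest was between 50% and 87.5% of the highest in a library, and in untreated TβRII-/- libraries it was 136, 160 and 138. Above it, Ugt1a6a had 32, 36 and 36 counts, Ugt1a7c 33, 36 and 38, Ugt1a6b 19, 26 and 31, and Ugt1a1 15, 26 and 16. Ugt1a2, Ugt1a5, Ugt1a8, Ugt1a9 and Ugt1a10 had at most 4 in any of these 3 libraries. In untreated TβRII flox/flox libraries no Ugt1a gene had more than 4 counts above the lowest. The values of Ugt1a7c and Ugt1a6a were nearly equal and cannot be told apart as separate signals. With H2O2 the count above the lowest in TβRII-/- PT cells came to 113 counts over the 3 libraries for Ugt1a6a, 114 for Ugt1a7c, 97 for Ugt1a6b and 33 for Ugt1a1.

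**Figure D3:**
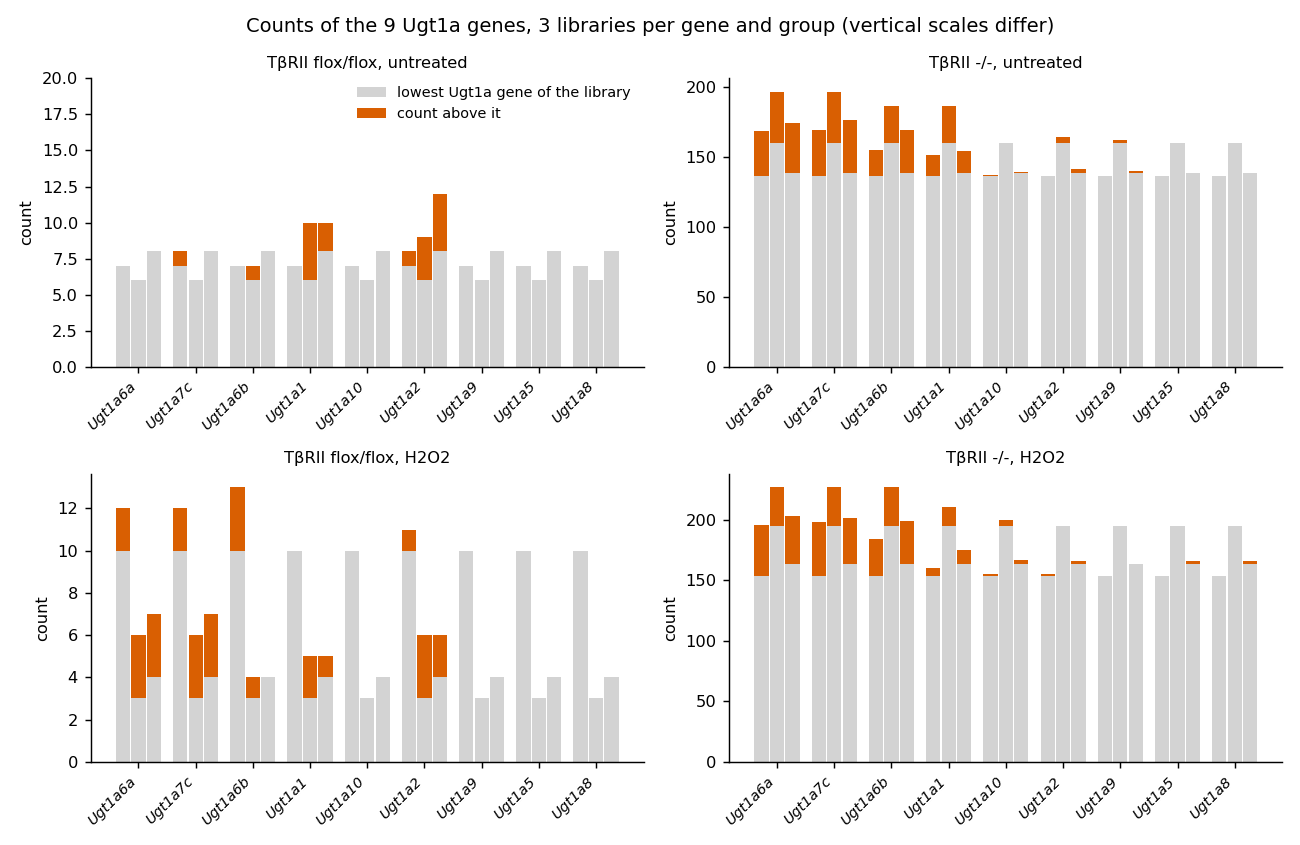
Deposited counts of the 9 Ugt1a genes in each group, with 3 bars per gene for the 3 libraries. Grey is the lowest Ugt1a count of that library and orange is the count above it. In both TβRII-/- groups the orange part is visible mainly for Ugt1a6a, Ugt1a7c, Ugt1a6b and Ugt1a1, and the vertical scale of the TβRII flox/flox groups is far smaller.

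The Ugt2 and Ugt3 genes were at or near 0. Ugt2b34 had the most, with 0 counts in all 6 TβRII flox/flox libraries, 7, 4 and 9 in untreated TβRII-/- libraries and 6, 14 and 7 in TβRII-/- libraries with H2O2. This was at least 6.11-fold and 7.57-fold higher in TβRII-/- PT cells against 3 counts over the group, below the filter and untested. The other Ugt2b genes had between 1 and 13 counts each over the 12 libraries.

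With H2O2 in both genotypes, 24 members were higher in TβRII-/- PT cells, 1 was lower and 3 (Gstm5, Gstp3 and Gstz1) were not called, against 17.3% of all genes higher and 13.4% lower. The median log2 fold change was 4.05 over the 28 tested members, or 3.21 with Gsta1 and Gsta13 at their bounds, and 0.02 over all genes. These values too are a description, because 17 of the 28 passed the filter only through the TβRII-/- libraries. Among the 11 that also passed in TβRII flox/flox libraries alone, 7 were higher, 1 was lower and 3 were not called, with a median of 1.04. Leaving out the 9 Ugt1a genes, 15 of 19 tested members were higher and 1 lower. The medians of 4.05 and 3.21 also count each of these 9 genes separately. The 24 members called untreated kept their direction with H2O2, and Mgst3 was added. Gstm1 was higher by 4.18 (SE 0.082, edgeR adjusted p = 7.98e-29), Gstm2 by 3.93 (SE 0.079, edgeR adjusted p = 1.71e-28) and Gsta4 by 6.09 (SE 0.23, edgeR adjusted p = 5.53e-21) on the log2 scale. Gsta3 was higher by 2.58, Gstp2 by 1.86, Gstt1 by 3.67, Gstt2 by 4.41, Gstt3 by 2.05, and the Ugt1a genes by 4.22 to 4.66. For Mgst1 (1.38), Mgst2 (2.41) and Gstm7 (1.09) the difference was smaller than without H2O2, and so was that of Gsto1, which fell by 0.62. Gsta1 was at least 5.33-fold and Gsta13 at least 6.73-fold higher.

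Fewer members were called after H2O2 in serum-free medium than between the genotypes. In TβRII flox/flox PT cells 3 of the 28 tested members rose and 1 fell, against 5.68% of all genes higher and 2.56% lower. Those called, in either direction, made up 14.3% of the tested members and 8.24% of all genes. No Ugt1a gene was among them, so with these left out 3 of 19 tested members rose and 1 fell. The difference between these shares was not tested. The median log2 change was 0.02 over the tested members and 0.01 over all genes. Mgst2 rose by 0.94 (SE 0.27, edgeR adjusted p = 0.00470), Mgst1 by 0.82 (SE 0.12, edgeR adjusted p = 1.12e-06) and Gstm7 by 0.77 (SE 0.25, edgeR adjusted p = 0.0121) on the log2 scale. In each of these the 3 treated libraries lay above the 3 untreated ones in normalized counts, for Mgst2 by no more than the step from 26.7 to 26.9. Gsto1 fell by 0.78 (SE 0.066, edgeR adjusted p = 3.79e-11). The call of Mgst2 was lost without TβRII flox/flox with H2O2 replicate 1 (0.68, edgeR adjusted p = 0.0644) and that of Gstm7 without untreated TβRII flox/flox replicate 2 (0.68, edgeR adjusted p = 0.0536). Gsta3 had a log2 change of -1.13 (SE 0.47, edgeR adjusted p = 0.0543) on between 4 and 15 counts a library. It was called by DESeq2 (adjusted p = 0.0499), with sums over transcripts (edgeR adjusted p = 0.0179), with no filter on low counts (edgeR adjusted p = 0.0421), and without untreated replicate 1 or treated replicate 3. Gstp3 was called at 1.26 (edgeR adjusted p = 0.0212) without treated replicate 1. Gstt1, at 3 and 8 counts, had a ratio of 2.62 with a 95% counting interval of 0.629 to 15.3.

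In TβRII-/- PT cells 2 tested members rose with H2O2 and 3 fell, against 4.56% of all genes higher and 3.76% lower. The called share, in either direction, was 17.9% of the tested members and 8.33% of all genes. Again no Ugt1a gene was called, so with these left out 2 of 19 tested members rose and 3 fell. This difference in shares was not tested either. The median log2 change was 0.08 over the tested members and 0.02 over all genes. The theta genes Gstt1 and Gstt2 rose by 1.54 (SE 0.31, edgeR adjusted p = 1.81e-04) and 0.76 (SE 0.21, edgeR adjusted p = 0.00487) on the log2 scale, with every treated library above every untreated one. Of the alpha genes, Gsta1 fell by 1.65 (SE 0.44, edgeR adjusted p = 0.00401), Gsta13 fell by 1.29 (SE 0.46, edgeR adjusted p = 0.0283) and Gsta3 fell by 0.61 (SE 0.24, edgeR adjusted p = 0.0435). The groups overlapped for Gsta13. The calls of Gsta13 and Gsta3 were both lost with DESeq2, with sums over transcripts (edgeR adjusted p = 0.127 and 0.0822), without untreated TβRII-/- replicate 1 or 3 and without treated replicate 3, and each was lost without 1 further treated library (replicate 1 for Gsta13, replicate 2 for Gsta3). Gsta4, which had far more counts, had a log2 change of -0.43 (SE 0.11, edgeR adjusted p = 0.00174), under the fold limit.

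Several abundant members stayed under the fold limit in both genotypes. Gstm1 had log2 changes of 0.36 in TβRII flox/flox (SE 0.082, edgeR adjusted p = 7.03e-04) and 0.31 in TβRII-/- PT cells (SE 0.069, edgeR adjusted p = 5.86e-04). Those of Gstz1 were 0.26 and 0.19, and those of Gstp1 -0.23 and -0.23. The Ugt1a genes were not abundant in TβRII flox/flox PT cells, with at most 13 counts in any library. Their log2 changes there lay between -0.45 and 0.22 (SE 0.39 to 0.47, edgeR adjusted p from 0.412 to 0.893), so the response in that genotype is poorly measured. In TβRII-/- PT cells they lay between 0.01 and 0.11 (edgeR adjusted p from 0.522 to 0.975).

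The H2O2 response itself differed between genotypes for 3 of the 28 tested members, each with a lower log2 change in TβRII-/- PT cells, against 0.64% of all genes with a higher and 1.72% with a lower response there. For Mgst1 the log2 change was 0.82 in TβRII flox/flox and 0.23 in TβRII-/- PT cells, a difference of -0.59 (SE 0.14, edgeR adjusted p = 0.00670). For Mgst2 it was 0.94 and -0.03, a difference of -0.98 (SE 0.29, edgeR adjusted p = 0.0300). For Gstm7 it was 0.77 and -0.26, a difference of -1.03 (SE 0.30, edgeR adjusted p = 0.0220). None of the 3 was called without TβRII-/- with H2O2 replicate 1, and only 1 of them without untreated TβRII flox/flox replicate 3 or without untreated TβRII-/- replicate 2. The call of Gstm7 was also lost without untreated TβRII flox/flox replicate 2 (edgeR adjusted p = 0.0557) and without untreated TβRII-/- replicate 3 (edgeR adjusted p = 0.0671), and Mgst1 fell under the fold limit with no filter on low counts (-0.58). The log2 change of Gsto1 was -0.78 in TβRII flox/flox and -0.32 in TβRII-/- PT cells (SE 0.071), and the difference of 0.46 (SE 0.097, edgeR adjusted p = 0.00196) was under the fold limit. Without TβRII flox/flox with H2O2 replicate 1, the call of Mgst2 was lost (-0.72, edgeR adjusted p = 0.153) and Gstp3 was called (-2.13, edgeR adjusted p = 0.0169, in place of -1.57 and 0.147).

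**Figure D4:**
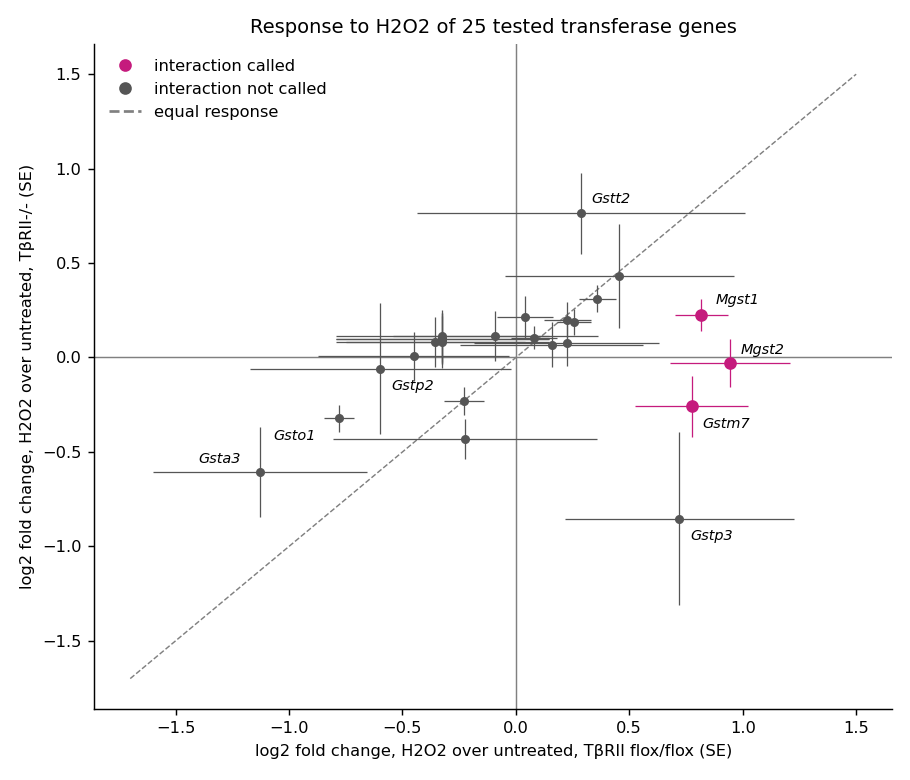
Log2 fold change with H2O2 in TβRII flox/flox (horizontal) and TβRII-/- PT cells (vertical) of 25 tested members, with edgeR SE on both axes. Gsta1 and Gsta13 (no count in TβRII flox/flox) and Gstt1 (3 counts untreated) are not drawn. Mgst1, Mgst2 and Gstm7 lie right of the dashed line of equal response, between 0.77 and 0.94 on the horizontal axis and between -0.26 and 0.23 on the vertical axis.

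Levels of different genes can be compared only per length of transcript. On the scale of normalized counts per kb, with Ugt1a1 standing for the Ugt1a locus, the summed level of all members was 3246 ± 207 (SD, n = 3) in untreated TβRII flox/flox and 16508 ± 538 in untreated TβRII-/- PT cells. With H2O2 it was 3031 ± 113 and 19027 ± 1230. Gstm1 made up 16.8% ± 0.53 of that sum in untreated TβRII flox/flox and 62.0% ± 0.054 in untreated TβRII-/- PT cells, and 23.1% ± 1.3 and 66.7% ± 2.0 with H2O2. Gsto1 made up 38.3% ± 0.89 and 3.55% ± 0.20 untreated, and 23.8% ± 0.51 and 2.46% ± 0.21 with H2O2.

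The order of levels per kb differed accordingly. In untreated TβRII flox/flox PT cells Gsto1 (1241), Gstm1 (546) and Gstp1 (468) led, followed by Gstm5 (254), Gstz1 (222) and Gstm2 (181). In untreated TβRII-/- PT cells Gstm1 (10240) and Gstm2 (2703) led, followed by Gstp1 (963), Gsto1 (586), Mgst1 (435) and Gstm5 (307). The Ugt1a genes lay between 44.2 and 64.1 per kb there, below Mgst2 (272) and Gsta4 (205).

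**Figure D5:**
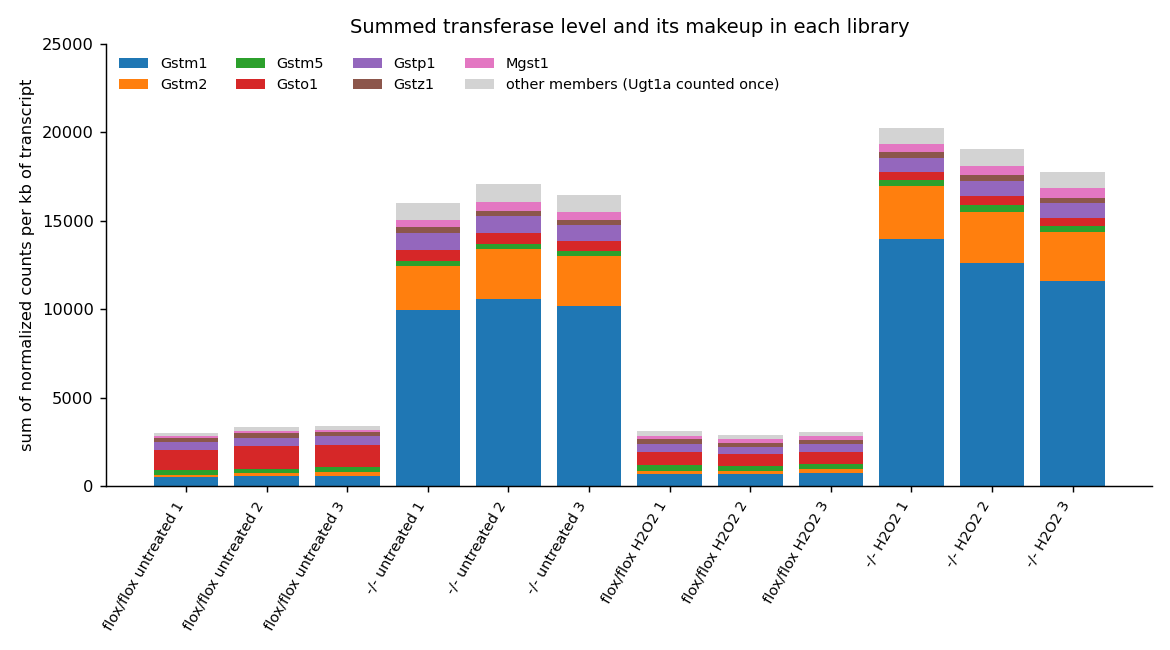
Sum of the normalized counts per kb of transcript over the members in each of the 12 libraries, split by gene, with the Ugt1a locus counted once as Ugt1a1. The 6 TβRII flox/flox bars lie between 2902 and 3372 and the 6 TβRII-/- bars between 16006 and 20230, most of it Gstm1 (blue) and Gstm2 (orange).

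The list of genes that make, recycle and break down glutathione, the cosubstrate of the transferases, held 19 genes, of which 17 were tested. Between untreated genotypes 7 were higher and 4 lower in TβRII-/- PT cells (16.3% and 11.8% of all genes tested), with a median log2 fold change of 0.52 against 0.01 over all genes. Oplah, which returns 5-oxoproline to glutamate, was higher by 3.39 (SE 0.12), Gsr, which reduces oxidized glutathione, by 1.30 (SE 0.058) and Hagh, a glyoxalase, by 1.23 (SE 0.084). Gclc and Gclm, the catalytic and modifier subunits of the rate-limiting glutamate-cysteine ligase, were higher by 0.68 each. Ggt1 and Ggt7, of the family that splits glutathione outside the cell, fell by 3.30 (SE 0.31) and fell by 3.13 (SE 0.12), respectively. The other 2 lower genes were Slc3a2, a subunit of amino acid transporters, and Ggct, which acts in glutathione breakdown. With H2O2 in both genotypes 8 of the 17 were higher and 3 lower, against 17.3% and 13.4% of all genes. From untreated to H2O2, Gclc fell by 1.63 in TβRII flox/flox and fell by 1.47 in TβRII-/- PT cells (edgeR adjusted p = 1.32e-19 and 4.95e-19).

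The shorter lists below compare untreated genotypes, in which 16.3% of all genes tested were called higher and 11.8% lower. Of 4 genes of glucuronate supply and release (median log2 fold change -0.03), 1 was higher, Ugdh, which makes UDP-glucuronate (1.08, SE 0.061), and 0 were lower. Of 5 tested genes of conjugate export (median 0.25), Abcc3, an exporter of glucuronides, was higher by 2.94 (SE 0.22) and Abcg2 fell by 1.57 (SE 0.076). Of 9 tested regulators (median 0.04), 3 were higher and 1 was lower, with Nfe2l2, the gene of NRF2, higher by 1.11 (SE 0.062) and Rxra by 1.24 (SE 0.067). Of 5 tested relatives outside the symbol rule (median 0.81), 3 were higher, among them Hpgds and Gdap1. Hpgds, the sigma class transferase that makes prostaglandin D2, had 3 counts over the untreated TβRII flox/flox libraries and 44 over those of TβRII-/- PT cells. Gdap1 had 4 and 40. Both passed the filter only through the TβRII-/- libraries, in which they are high, so their calls are a description.

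The 5 tested genes whose log2 CPM followed Gstm1 most closely over the 12 libraries were Gstm2, Smagp, Gpd1, Rhpn2 and Mal2, with Pearson r from 0.997 to 0.998. These values describe the gap between genotypes, which separates the 12 libraries into 2 clusters, and carry no test.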

How the data were processed

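RNA-seq libraries (TruSeq Stranded mRNA, NovaSeq) were made from 3 samples in each of 4 groups. Per the labels and the study's methods, the authors trimmed reads with fastp, aligned them with STAR to GRCm38.p6 and counted with featureCounts against GENCODE M23, and versions are not given in the sources used here. The deposited values are raw counts per transcript, not normalized, for 106332 transcripts in each library. Counting per transcript adds a read to each transcript it fits, so totals over transcripts exceed the number of fragments.

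Transcripts were assigned to genes by Ensembl identifier in GENCODE M39. Of them 1512 were not matched and left out, with 1.22% to 1.28% of the counts. Each gene took the counts of whichever of its transcripts had most over all 12 libraries, giving gene totals of 15870155 to 20857618 per library. Counts were fitted with edgeR 4.0.16 (limma 3.58.1, R 4.3.3): TMM scaling, filterByExpr on the 4 groups and a quasi-likelihood model with 1 mean per group over all 12 libraries, in place of the DESeq2 named in the study, which was run as an alternative (DESeq2 1.42.0). P-values were adjusted by Benjamini-Hochberg over the 12971 genes tested. Normalized counts are counts divided by the TMM-scaled library size and multiplied by the mean of these sizes. A gene with 0 counts in a group was set against 3 counts over that group, and intervals of ratios cover counting error only. Coordinates and promoters are those of RefSeq for GRCm38.p6, found for 46 of 48 members. Tables and figures used Python 3.11.15, pandas 2.3.3, numpy 2.4.6 and matplotlib 3.10.9. The edgeR step was tested on simulated counts with 200 changed genes.

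The members, gene lists, markers and tests were chosen with earlier results of these data known. Values in every library are given for members with a mean of at least 10 normalized counts in 1 group that were called in 1 comparison and for the leading tested member of each class. Of the lists, genes with a called change of at least 2-fold and Nfe2l2, Gclc, Gclm, Gsr and Ugdh are named. Gsta2, Gsta5, Gstm3, Gstm5, Gstm6, Gstp3, Gstk1, Gsto2, Gstt4 and Ugt2b34 were added after their values were seen.

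Same-numbered libraries of different groups did not deviate together (r from -0.101 to 0.0582 over 18 pairs, 0 of them above 0.1), so no replicate block was used. Replicates differed by more than sampling noise (chi-square per gene 3.60 to 12.3). The alternatives were another scaling, DESeq2, other filters and limits, a replicate block, a fit on only the groups compared, sums over transcripts, and each library left out. Counts from protein-coding transcripts alone and the Ugt1a genes as 1 locus were added after seeing the data.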

Additional observations from a re-analysis of the deposited data

Results flagged for a closer look

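The effect of H2O2 differed between the genotypes by a test of the difference itself (edgeR, interaction of genotype and treatment) for 3 members. The difference in log2 change, TβRII-/- minus TβRII flox/flox, was -0.59 for Mgst1, -0.98 for Mgst2 and -1.03 for Gstm7. In TβRII flox/flox PT cells all 3 rose, and in TβRII-/- PT cells all 3 were uncalled, with log2 changes of 0.23, -0.03 and -0.26. That of Mgst1 had an edgeR adjusted p = 0.0314 and was under the fold limit. These interaction calls depended on single libraries. Leaving out TβRII-/- with H2O2 replicate 1, 0 of the 3 were called. Leaving out untreated TβRII flox/flox replicate 3 or untreated TβRII-/- replicate 2, 1 was called.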

How the results depend on the processing

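Of 85 log2 fold changes of named members, 61 were called. Most members were named because they were called in at least 1 comparison, so this share follows from that choice. The Ugt1a genes, which share reads, are counted separately in it. Under the alternatives these 61 gave 982 values, of which 951 stayed called in the same direction, 31 (from 9 results) lost the call and 0 turned direction. Dropping the fold limit on the same fit cannot remove a call, so the values from that alternative stayed called by construction. The number of members called between genotypes ranged from 24 to 25 untreated and from 24 to 26 with H2O2 when 1 library was left out, from 3 to 5 for H2O2 in each genotype, and from 0 to 3 for the interaction. In TβRII-/- PT cells 3 members were called for H2O2 with DESeq2, with a mean of at least 10 counts or with sums over transcripts, in place of 5, and 11 with no fold limit. In TβRII flox/flox PT cells 7 were called with no fold limit in place of 4. The uncalled log2 change of Mgst2 in TβRII-/- PT cells, -0.03, turned sign (0.039) without untreated replicate 2 and ranged from -0.082 to 0.039 with 1 library left out. The cause of these changes was not tested. With a replicate block the counts were 24, 25, 4, 5 and 3, as without it, and the numbers do not pair the libraries. With the Ugt1a genes as 1 locus 16 and 17 members were called between genotypes, and protein-coding transcripts alone changed no count. A fit on only the groups compared gives no interaction. Depth limits the values of members with few counts, such as Gsta1, Gsta13, Gstp2, Gstp3 and Gstt1.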
